A study of Mus musculus with 6 samples.

Results

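A set of 10 genes of corticosteroid signalling was followed in mouse skin: the receptor genes Nr3c1 and Nr3c2, the hormone-activating enzyme gene Hsd11b1, and 7 well known glucocorticoid targets, Tsc22d3, Fkbp5, Sgk1, Zbtb16, Dusp1, Klf9 and Errfi1. They were chosen by symbol from their known roles, but with earlier results of these data known. All 10 were found among the 54146 Ensembl gene IDs of the study. The gene lists set beside them were chosen with the same knowledge. Skin RNA had been sequenced in 2 groups at week 12, a control group (CON) of 3 mice and a group of 3 mice kept under chronic restraint stress (CRS). In chronic restraint an animal is repeatedly confined, which is a rodent model of psychological stress with repeated release of corticosterone. The sources used here do not state the restraint schedule, the time since the last session, the hour of sampling or plasma corticosterone, nor the strain, age and sex of the mice or the area of skin. Each library was taken as 1 mouse, as the study's design describes 3 per group.

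Corticosterone, the main glucocorticoid of mice, enters cells and binds the glucocorticoid receptor encoded by Nr3c1, which is held ready by the chaperone Hsp90 and its partners. The bound receptor moves to the nucleus and attaches to glucocorticoid response elements, palindromic DNA sequences near its targets. The mineralocorticoid receptor encoded by Nr3c2 binds the same hormone with high affinity. Hsd11b1 regenerates active hormone from its inactive 11-keto form inside the cell, and Hsd11b2 does the reverse. In skin, glucocorticoids restrain inflammation and cell division and, in excess, thin the dermis.

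Promoter windows were searched for elements in the DNA next to annotated start sites, and more distant DNA was not searched. Windows of 300 bases, from 250 before to 50 after an annotated start, were read from the RefSeq table of the build GRCm38.p6. Of the 10 genes, 8 had windows there, 16 in all. Nr3c1 and Zbtb16 had none and were not searched. The palindrome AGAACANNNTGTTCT, which reads the same on both strands, was found in 3 of all 32851 windows (0.00913%). Of these 1 belongs to Sgk1, whose windows at other annotated starts lacked it. That window is printed below with the element in capitals, 189 to 175 bases before the start, at chr10:21993640-21993939 on the plus strand.
Sgk1: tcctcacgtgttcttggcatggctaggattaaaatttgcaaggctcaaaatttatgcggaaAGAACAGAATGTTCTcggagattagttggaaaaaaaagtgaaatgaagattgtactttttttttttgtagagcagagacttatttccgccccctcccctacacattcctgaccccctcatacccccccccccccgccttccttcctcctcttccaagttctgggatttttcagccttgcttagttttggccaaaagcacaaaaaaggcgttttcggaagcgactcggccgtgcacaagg
The shorter core GNACANNNTGTNC lies inside that palindrome and was found in 156 windows (0.475%). Sgk1 was again the sole match among the 8 genes with windows. Among the other genes listed it was found at 5, namely Hsd3b6, Jund, Mt1, Trim63 and Txnip. The metallothionein gene Mt1, a classic glucocorticoid target, is shown for comparison with the core in capitals, at chr8:94178839-94179138 on the plus strand. Whether this core takes part in the response of Mt1 to the hormone was not tested.
Mt1: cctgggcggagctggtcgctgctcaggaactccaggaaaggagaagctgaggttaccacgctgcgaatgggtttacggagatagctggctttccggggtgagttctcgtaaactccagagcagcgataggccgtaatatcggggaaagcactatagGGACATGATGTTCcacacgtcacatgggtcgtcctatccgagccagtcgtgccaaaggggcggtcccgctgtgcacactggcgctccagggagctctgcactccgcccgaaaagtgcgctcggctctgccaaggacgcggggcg

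The half-site AGAACA, searched on both strands and contained in the palindrome, was far more common, with a match in 19.0% of windows. Among the 16 windows of the 8 genes 4 had a match, at Sgk1 and Tsc22d3. Tsc22d3 had it in 1 of its 3 windows, at chrX:140600473-140600772 on the minus strand, shown because Tsc22d3 gave the lowest fold change of the 10 genes. The half-site is in capitals and appears as its reverse complement.
Tsc22d3: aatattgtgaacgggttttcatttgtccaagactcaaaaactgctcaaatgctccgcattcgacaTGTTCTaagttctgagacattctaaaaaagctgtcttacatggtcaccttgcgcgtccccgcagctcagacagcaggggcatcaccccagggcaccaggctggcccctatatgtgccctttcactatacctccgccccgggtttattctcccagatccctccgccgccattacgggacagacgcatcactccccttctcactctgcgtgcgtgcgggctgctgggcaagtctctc
Dusp1 and Errfi1 shared another element, the palindromic cAMP response element TGACGTCA, which is bound by the transcription factor CREB and occurred in 1.79% of windows. The 40 bases around it are shown at chr17:26508592-26508631 (minus strand) and chr4:150855003-150855042 (plus strand), with the element in capitals.
Dusp1: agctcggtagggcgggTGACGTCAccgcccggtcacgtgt
Errfi1: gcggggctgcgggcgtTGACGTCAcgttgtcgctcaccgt
A match describes the letters of these windows only, and binding was not measured.

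The deposited values are FPKM, fragments per kilobase of exon, scaled to the number of fragments in the library. Depth, recovered from the FPKM steps, was 13.3 M to 25.7 M fragments per library. Libraries stood apart before any comparison. In CON replicate 1, 15.3% of fragments came from mitochondrially encoded genes, against at most 4.19% in any other library. Skeletal muscle markers summed to 14452 FPKM there, against 493 to 3024 FPKM in the other 5 libraries, and the X-linked transcript Xist stood at 2.80 FPKM there and at most 0.168 FPKM elsewhere, with Y-linked transcripts in all 6. Genes with at least 5000 nt of exon and a mean of at least 1 FPKM were shifted by 0.69 log2 units above their mean in CRS replicate 2. They were shifted by -0.42 in CRS replicate 1 and by -0.58 in CRS replicate 3. Keratinocyte markers (12 of 12, none at 0 in any library) and dermal fibroblast markers (12 of 12) were present throughout, which fits the label skin.

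CRS and CON were compared with limma on log2(FPKM + 0.1) over the 28389 genes whose mean reached 0.1 FPKM, and all 10 genes passed that filter. Fold changes are on that scale and can understate those of low genes. For the low gene Cxcl1 the log2 fold change was -1.04, and -1.40 with 0.01 added in place of 0.1. The adjusted p is the Benjamini-Hochberg value over all genes tested, with a threshold of 0.05. No gene passed it, neither among the 10 nor among all (0.0% higher and 0.0% lower), and each of the 10 had an adjusted p of 0.9999. With limma voom on the recovered fragments 0 genes passed as well. At an unadjusted limma p under 0.05, 1 of the 10 genes was lower and 0 were higher, where 1.63% of all genes tested were lower and 0.919% higher. The groups did not overlap for 1 gene, the same one, as for 5.19% of all genes in the lower direction and 1.65% in the higher. Of the 10 fold changes 7 lay under 0 and 3 above, where 67.8% of all genes lay under and 32.2% above, and the median was -0.18 log2 units against -0.20 for all genes. Where a fold change is also given relative to all genes, that median has been subtracted.

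**Figure D1:**
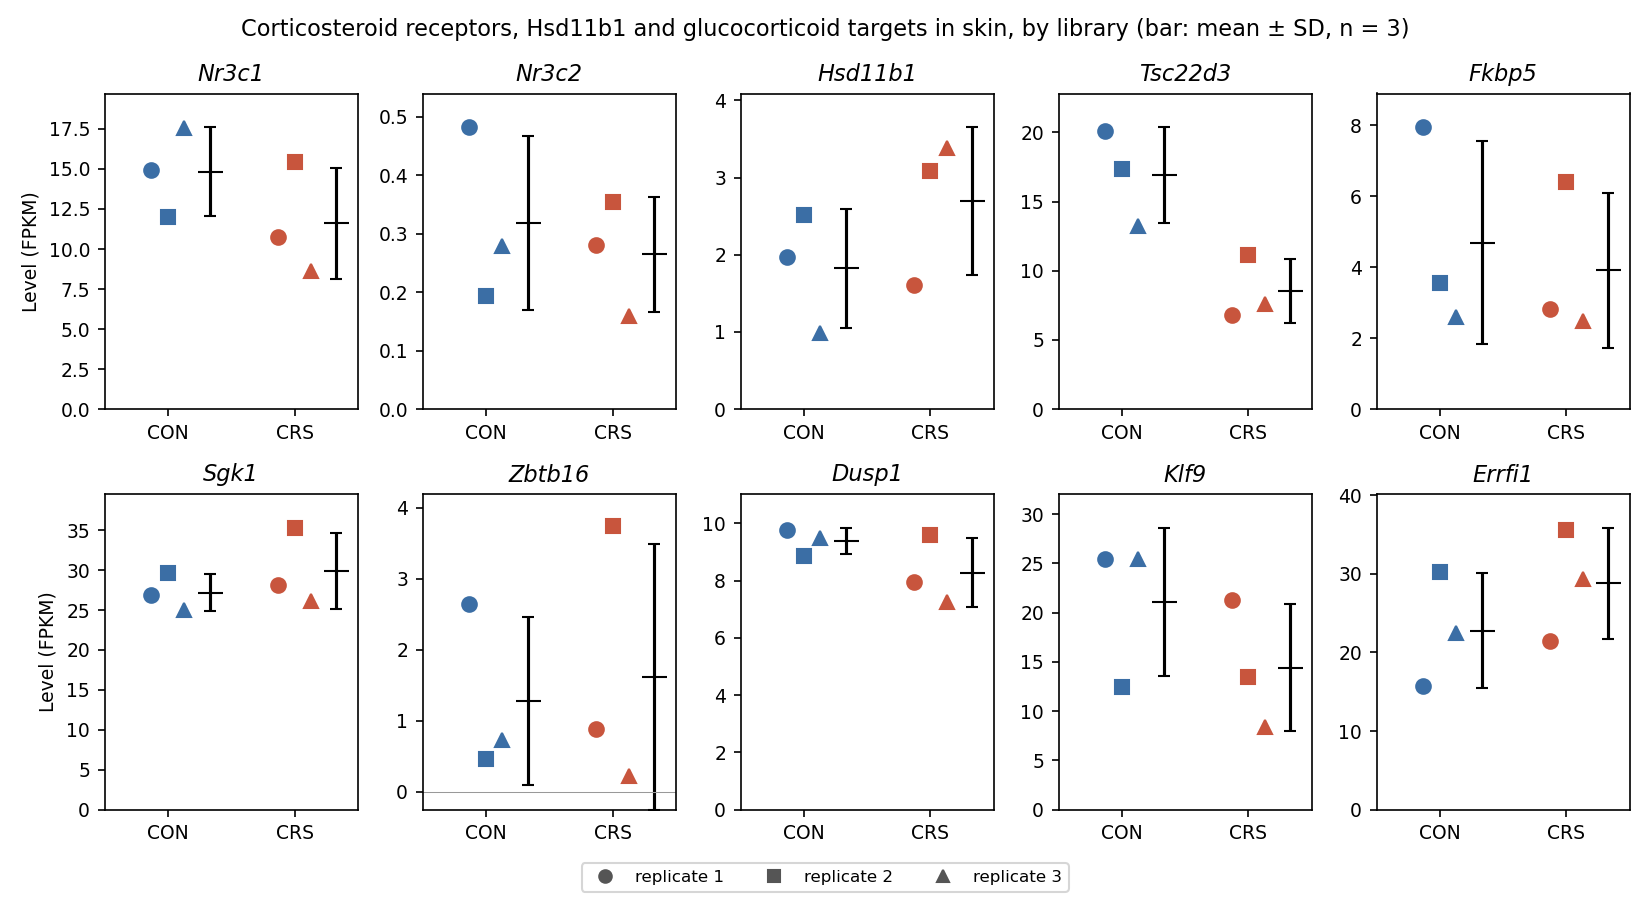
Level in FPKM on the y axis of each of the 10 genes in the 3 CON libraries (blue) and 3 CRS libraries (red), with marker shapes for replicate numbers and bars for mean ± SD. Tsc22d3 is the sole gene whose groups do not overlap, and Zbtb16 in CRS has an SD larger than its mean, so its bar runs below 0.

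The receptor genes were expressed at very different levels. Nr3c1 stood at 15.0, 12.0 and 17.5 FPKM in CON replicates 1 to 3 and at 10.8, 15.4 and 8.62 FPKM in CRS replicates 1 to 3. CRS replicates 1 and 3 lay below every CON library, while CRS replicate 2 lay between CON replicates 1 and 3, so the groups overlapped. The means were 14.8 ± 2.78 and 11.6 ± 3.48 FPKM (SD, n = 3). CRS minus CON came to -0.37 log2 units (SE 0.33, 95% interval -1.13 to 0.38), or -0.18 relative to all genes, with an exact permutation p of 0.3 where 0.1 is the smallest that 3 against 3 allows. Without CRS replicate 2 the log2 fold change was -0.60 and without CRS replicate 3 it was -0.18. Nr3c1 has 7684 nt of exon. Genes of at least 5000 nt were shifted as a class by -0.42, 0.69 and -0.58 log2 units in CRS replicates 1 to 3.

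Nr3c2 was the lowest of the 10 genes, at 0.482, 0.194 and 0.279 FPKM in the CON libraries and 0.281, 0.354 and 0.159 FPKM in the CRS libraries. These values rest on 24 to 59 fragments per library, and the highest and lowest library came from different groups. The exact Poisson intervals, which cover counting error only, were 0.367 to 0.622 FPKM for CON replicate 1 and 0.104 to 0.233 FPKM for CRS replicate 3. The difference in log2 units was -0.18 (SE 0.58, 95% interval -1.50 to 1.15), and it turned to 0.091 when CON replicate 1 was left out and to 0.051 when CRS replicate 3 was. A difference in Nr3c2 was thus not detectable at this depth and spread. Its exons share 247 nt with Gm10649 on the opposite strand, which reached at most 0.0258 FPKM.

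The ratio of Nr3c1 to Nr3c2 within a library does not depend on how the library was scaled. It was 31.0, 61.8 and 62.9 in CON and 38.3, 43.5 and 54.1 in CRS, all CRS values lying inside the CON range. The log2 ratio averaged 5.63 ± 0.58 in CON and 5.49 ± 0.25 in CRS (SD, n = 3), a difference of -0.14 with an exact two-sided permutation p of 0.8. In every library Nr3c1 thus exceeded Nr3c2 by at least 31.0-fold per unit of exon length.

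Hsd11b1 stood at 1.97, 2.51 and 0.991 FPKM in the CON libraries and at 1.602, 3.09 and 3.39 FPKM in the CRS libraries, from 56 to 363 fragments. CRS replicates 2 and 3 were the highest of the 6 libraries and CRS replicate 1 lay within the CON range. On the log2 scale CRS minus CON was 0.56 (SE 0.49, 95% interval -0.55 to 1.68), or 0.76 relative to all genes, with an exact permutation p of 0.3. The value was 0.20 without CON replicate 3, the lowest library, and 0.89 without CRS replicate 1. Against Nr3c1 in the same library, the ratio of Hsd11b1 was 0.131, 0.210 and 0.0565 in CON and 0.149, 0.20 and 0.393 in CRS. The log2 ratio averaged -3.11 ± 0.96 and -2.14 ± 0.72 (SD, n = 3), a difference of 0.97 with an exact permutation p of 0.3. This ratio does not remove shifts tied to exon length, which is 4251 nt for Hsd11b1 and 7684 nt for Nr3c1.

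Hsd11b2, the inactivating enzyme gene, was nearly silent at a mean of 0.269 ± 0.278 FPKM in the CON libraries and 0.205 ± 0.140 FPKM in the CRS libraries. CRS against CON gave a log2 fold change of -0.065 (SE 0.75), and it turned to 0.52 without CON replicate 2. Of the 21 genes listed for corticosteroid supply and breakdown 15 passed the filter, 10 with fold changes above 0 and 5 under 0, with a median of 0.25. Of all genes 32.2% lay above 0 and 67.8% under. At an unadjusted limma p under 0.05, 1 was higher and 0 were lower, against 0.919% and 1.63% of all genes. The groups did not overlap for 1 higher and 1 lower gene, against 1.65% and 5.19% of all genes. Cyp11b2 and Hsd3b1 were listed at 0 in every library. Star, whose protein carries cholesterol into mitochondria for steroid synthesis, stood at 1.93, 2.93 and 2.34 FPKM in the CON libraries and at 4.42, 5.24 and 5.60 FPKM in the CRS libraries. All 3 CRS values were above all CON values, and the log2 fold change was 1.07 (SE 0.34), or 1.26 relative to all genes. The exact permutation p was 0.1, the unadjusted limma p 0.0123 and the limma adjusted p 0.9999. Sebaceous gland markers also stood higher in CRS, in 8 of the 9 tested, with sums of 362 to 571 FPKM in the CON libraries and 610 to 904 FPKM in the CRS libraries. Of that list Mogat2 was listed at 0 in some libraries, and the part of the gland in the Star values was not tested. Srd5a1, a steroid-reducing enzyme gene named after its values were seen, was lower without overlap by a small difference of -0.20 log2 units (SE 0.27), or 0.0026 relative to all genes.

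Tsc22d3 encodes GILZ, a leucine zipper protein that carries part of the anti-inflammatory action of glucocorticoids and is among the most widely used readouts of the receptor. It stood at 20.1, 17.4 and 13.2 FPKM in the CON libraries and at 6.80, 11.2 and 7.60 FPKM in the CRS libraries, from 568 to 1650 fragments. The highest CRS library, replicate 2, lay below the lowest CON library, replicate 3. The means were 16.9 ± 3.47 and 8.52 ± 2.32 FPKM (SD, n = 3). CRS minus CON came to -0.99 log2 units (SE 0.33, 95% interval -1.74 to -0.25), which is 50.3% of the CON level, or -0.79 relative to all genes. The unadjusted limma p was 0.0150, the adjusted p 0.9999 and the exact permutation p 0.1, the smallest the design allows.

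The Tsc22d3 value kept its sign under all 18 alternatives, from -1.26 to -0.75 log2 units. With each library left out in turn it ran from -1.20 to -0.85, and its unadjusted limma p from 0.00241 to just over 0.05, the latter without CRS replicate 1. With CON replicate 1 and CRS replicate 2 both left out it was -1.07, and after a correction for exon length it was -0.75. Markers of other cell types also differed between the libraries. All 12 skeletal muscle markers were lower in CRS, with sums of 1622 to 14452 FPKM in the CON libraries and 493 to 3024 FPKM in the CRS libraries, and Tnnc2 listed at 0 in some libraries. Endothelial markers were lower in 9 of 10, with sums of 24.2 to 58.7 FPKM in the CON libraries and 14.1 to 41.9 FPKM in the CRS libraries, none at 0. Fold changes lay above 0 for 11 of 12 dermal fibroblast, 9 of 10 T cell and all 12 macrophage and dendritic cell markers. They did so for 9 of 12 keratinocyte and 6 of 12 adipocyte markers, where 32.2% of all genes lay above 0. The part of these cell types in the Tsc22d3 value was not tested. In whole skin, fewer cells of a type and less RNA per cell cannot be told apart.

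**Figure D2:**
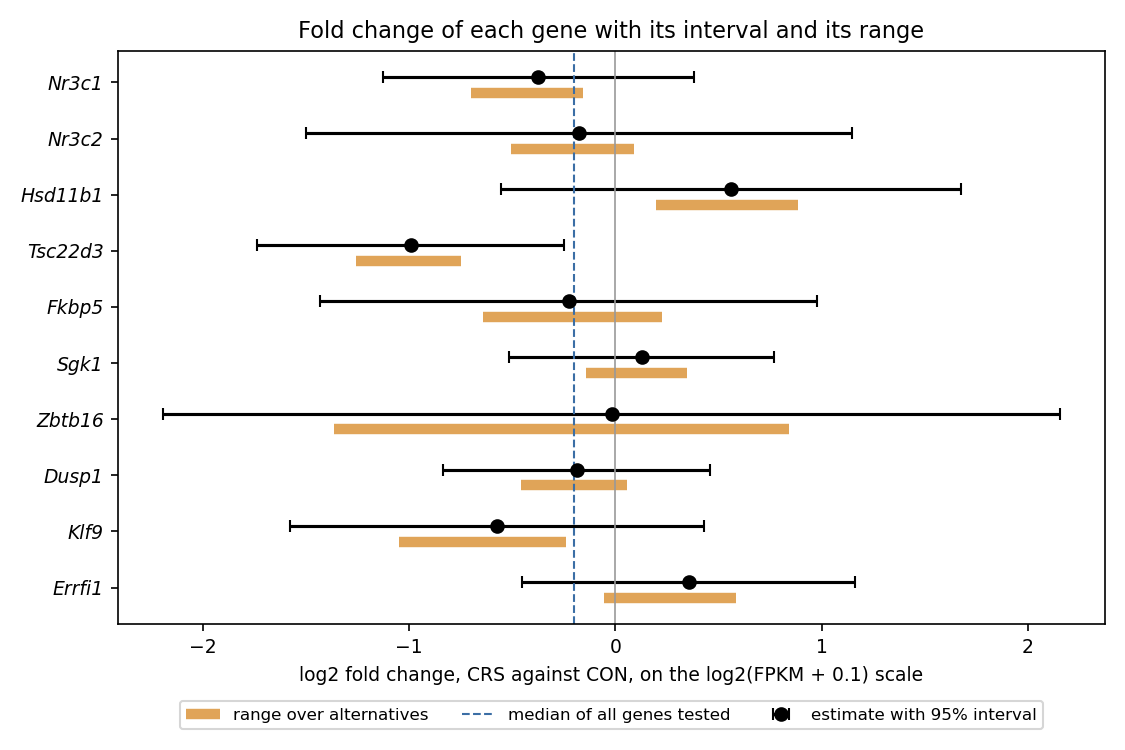
log2 fold change of CRS against CON for each of the 10 genes on the x axis, as the limma estimate with its 95% interval (black), beside the range over all alternatives tried (orange). The dashed line is the median of all genes tested at -0.20, and Tsc22d3 at -0.99 is the sole gene whose interval stays on one side of 0.

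Fkbp5 encodes a co-chaperone that lowers the hormone affinity of the receptor and is induced by it, which forms a short feedback loop. It stood at 7.94, 3.54 and 2.60 FPKM in the CON libraries and at 2.83, 6.41 and 2.49 FPKM in the CRS libraries. The highest library of each group stood 3.05 times above the lowest in CON and 2.58 times in CRS, while the group means were 4.69 ± 2.85 and 3.91 ± 2.17 FPKM (SD, n = 3). The difference in log2 units was -0.23 (SE 0.53, 95% interval -1.43 to 0.98), near the median of all genes. It turned to 0.23 without CON replicate 1 and to 0.024 without CRS replicate 3, so no direction can be given.

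Zbtb16 encodes the zinc finger repressor PLZF, one of the transcripts most strongly induced by glucocorticoids in several tissues. It stood at 2.64, 0.465 and 0.726 FPKM in the CON libraries and at 0.886, 3.74 and 0.225 FPKM in the CRS libraries. The spread within a group was 5.68-fold in CON and 16.6-fold in CRS, the widest of the 10 genes. It was larger than counting error, since 509 fragments in CRS replicate 2 gave an interval of 3.43 to 4.08 FPKM and 30 fragments in CRS replicate 3 one of 0.152 to 0.322 FPKM. The log2 fold change of -0.019 (SE 0.95) had a 95% interval of -2.19 to 2.16, and it ran from -0.94 to 0.84 with each library left out.

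Fkbp5, Zbtb16 and Nr3c2 shared an order of libraries. CON replicate 1 was the highest of CON and CRS replicate 2 the highest of CRS for these 3 and for Tsc22d3 and Dusp1, 5 of the 10 genes. The same order held for 24.9% of all genes tested, and for 31.4% of those with a mean of at least 1 FPKM. Of the 5 genes, 4 reach that mean and Nr3c2 does not. Endothelial markers had their highest sums in the same libraries, 58.7 FPKM in CON replicate 1 and 41.9 FPKM in CRS replicate 2, as did skeletal muscle markers at 14452 and 3024 FPKM. Fkbp5 at 9468 nt, Nr3c1 at 7684 nt and Zbtb16 at 5283 nt of exon also belong to the long genes that as a class stood high in CRS replicate 2. Nr3c2 is long as well, at 6474 nt, but lies below the mean of 1 FPKM required for that class. The part of muscle and vessels in these values was not tested. After a correction for exon length the log2 fold changes of Nr3c2 and Zbtb16 were 0.049 and 0.20, above 0 in place of under it.

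**Figure D3:**
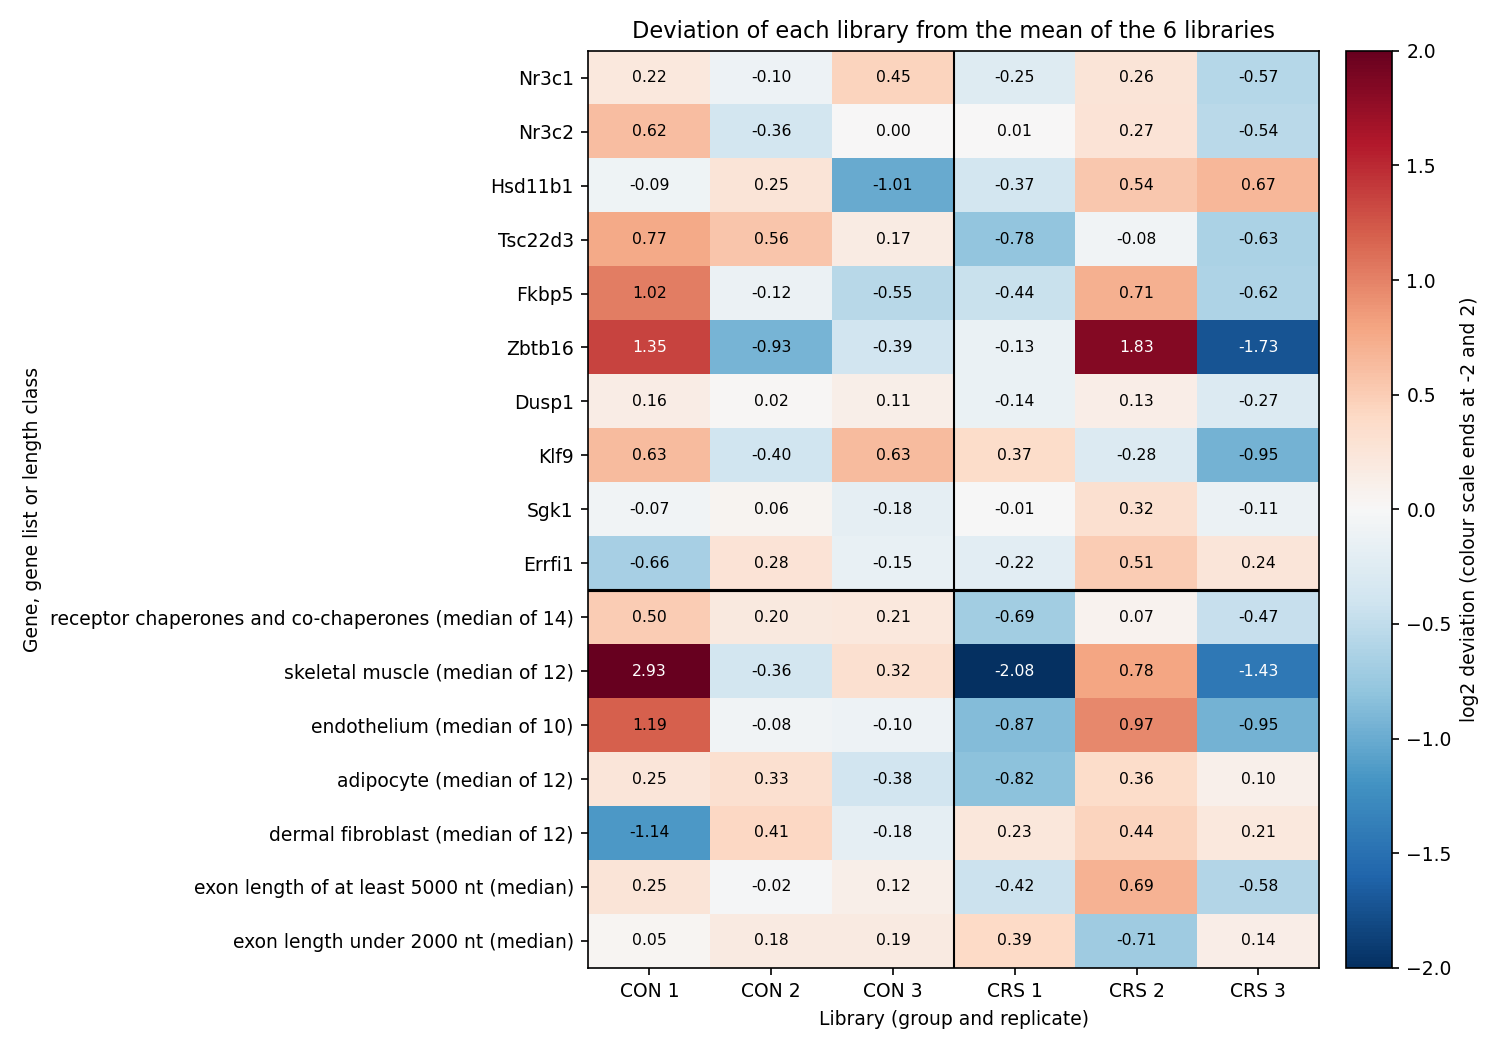
Each cell gives the deviation, in log2 units, of 1 library (x axis) from the mean of the 6 libraries, for the 10 genes above the line and for the medians of gene lists and exon length classes below it (y axis). CON replicate 1 and CRS replicate 2 are high for Fkbp5 (1.02 and 0.71), Zbtb16 (1.35 and 1.83) and the endothelial markers (1.19 and 0.97), while Sgk1 and Dusp1 stay between -0.27 and 0.32.

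Sgk1 and Dusp1 were the steadiest of the 10 genes. Sgk1, a kinase that keeps the epithelial sodium channel at the cell surface, stood at 26.9, 29.6 and 25.02 FPKM in the CON libraries and at 28.1, 35.3 and 26.2 FPKM in the CRS libraries. Values of CRS replicates 1 and 3 lay within the CON range, and CRS replicate 2 lay above it. The log2 fold change was 0.13 (SE 0.28, 95% interval -0.51 to 0.77), or 0.33 relative to all genes, and it was -0.14 when libraries were scaled without mitochondrial and muscle genes. Sgk1, the gene with the palindromic element in a window, thus showed no difference beyond the spread between mice. The interval still allows a log2 fold change of up to 0.77.

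Dusp1, a phosphatase that switches off MAP kinases, stood at 9.79, 8.87 and 9.49 FPKM in the CON libraries and at 7.96, 9.60 and 7.25 FPKM in the CRS libraries. CRS replicates 1 and 3 lay below all CON libraries and CRS replicate 2 lay among them. On the log2 scale CRS minus CON was -0.19 (SE 0.28, 95% interval -0.83 to 0.46), equal to the shift of all genes within 0.010 log2 units. Under median-ratio scaling, which centres that shift, it was 0.027. Its exons share 11 nt with Ergic1 on the opposite strand.

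Klf9, a Krüppel-like transcription factor that is both hormone-induced and rhythmic, stood at 25.4, 12.4 and 25.5 FPKM in the CON libraries and at 21.2, 13.5 and 8.44 FPKM in the CRS libraries. CON replicate 2 lay below CRS replicates 1 and 2, and CRS replicate 3 was the lowest of all. CRS against CON gave a log2 fold change of -0.57 (SE 0.44, 95% interval -1.58 to 0.43), or -0.38 relative to all genes, with an exact permutation p of 0.3. It kept its sign under every alternative, from -1.05 with array weights to -0.24 without CRS replicate 3.

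Errfi1, an inhibitor of the EGF receptor that limits keratinocyte growth, stood at 15.7, 30.2 and 22.5 FPKM in the CON libraries and at 21.4, 35.5 and 29.4 FPKM in the CRS libraries. CON replicate 1 was the lowest library and CRS replicate 2 the highest, with the others interleaved. Its log2 fold change was 0.36 (SE 0.35, 95% interval -0.45 to 1.16), or 0.55 relative to all genes. It was 0.11 without CON replicate 1, and -0.053 with CON replicate 1 and CRS replicate 2 both left out.

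By median level over the 6 libraries the order was Sgk1 at 27.5 FPKM, Errfi1 at 25.9, Klf9 at 17.4, Nr3c1 at 13.5, Tsc22d3 at 12.2, Dusp1 at 9.18, Fkbp5 at 3.18, Hsd11b1 at 2.24, Zbtb16 at 0.806 and Nr3c2 at 0.280 FPKM. The ranges over the libraries overlapped for every pair of neighbours in this order. The receptor gene Nr3c1 thus stood among its moderately expressed targets, and its partner Nr3c2 at the bottom.

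Other glucocorticoid-induced genes, from a list of 34 of which 31 passed the filter, had 22 fold changes under 0 and 9 above 0, where 67.8% of all genes lay under 0. The median was -0.42 log2 units, or -0.22 relative to all genes. At an unadjusted limma p under 0.05, 1 was lower and 0 were higher, against 1.63% and 0.919% of all genes, and 0 passed the adjusted threshold. That gene, Cebpb, which encodes a transcription factor of differentiation and inflammation, stood at 23.5, 12.6 and 42.2 FPKM in the CON libraries and at 12.1, 4.83 and 10.9 FPKM in the CRS libraries. The groups were separated by little, 12.6 FPKM in CON replicate 2 against 12.1 FPKM in CRS replicate 1, and the log2 fold change was -1.42 (SE 0.52), with an unadjusted limma p of 0.0244 and an exact permutation p of 0.1.

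The metallothionein genes, whose products bind zinc and which glucocorticoids and metals induce, varied more within CRS than within CON. Mt1 stood at 332, 314 and 388 FPKM in the CON libraries and at 332, 81.9 and 244 FPKM in the CRS libraries, and Mt2 at 11.3, 7.08 and 10.4 FPKM and at 7.78, 1.39 and 5.13 FPKM. CRS replicate 2 held the lowest value of both. CRS replicate 3 also lay below every CON library for both, while CRS replicate 1 lay within the CON range. Both genes are short, at 1246 and 588 nt of exon. Genes under 2000 nt with a mean of at least 1 FPKM were shifted as a class by -0.71 log2 units in CRS replicate 2. Their log2 fold changes were -0.87 (SE 0.55) and -1.27 (SE 0.59), and without CRS replicate 2 they were -0.27 and -0.57. After the correction for exon length they were -0.75 and -1.17. Per1, a clock gene that the receptor induces directly, stood at 3.66, 3.51 and 3.37 FPKM in the CON libraries and at 2.46, 7.12 and 1.62 FPKM in the CRS libraries. Its CON values were close together and its CRS values lay on both sides of them, with a log2 fold change of -0.19 (SE 0.53) that was 0.25 without CRS replicate 3. The muscle enzyme gene Fbxo32, a known target in muscle wasting, was listed at 0 in every library.

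For the chaperones that hold the receptor in its hormone-binding form, 13 of 14 fold changes lay under 0, where 67.8% of all genes were under 0. Their median was -0.63 log2 units, or -0.43 relative to all genes. At an unadjusted limma p under 0.05, 2 were lower and 0 higher, against 1.63% and 0.919% of all genes. The groups did not overlap for 4, all lower, against 5.19% of all genes, and 0 passed the adjusted threshold. This list, like the others, was chosen with earlier results of these data known. Skeletal muscle markers, with 12 of 12 fold changes under 0 and a median of -1.90, and endothelial markers, with 9 of 10 and a median of -0.74, lay lower beside them. As for those markers, the chaperone median was highest in CON replicate 1 and, within CRS, in CRS replicate 2, and the part of these cell types was not tested. Hsp90aa1, the inducible Hsp90, stood at 158.7, 100.8 and 173.1 FPKM in the CON libraries and at 57.5, 78.7 and 67.8 FPKM in the CRS libraries, with a log2 fold change of -1.06 (SE 0.35). Ptges3, which encodes the Hsp90 partner p23, stood at 139.6, 111 and 130.8 FPKM and at 70.6, 64.2 and 72.4 FPKM, with a log2 fold change of -0.88 (SE 0.30). The unadjusted limma p was 0.0157 and 0.0193, and all CRS libraries lay below all CON libraries for both.

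Fkbp4, the co-chaperone that takes the place of Fkbp5 when the receptor binds hormone, was tight within groups. It stood at 88.5, 75.7 and 84.8 FPKM in the CON libraries and at 50.9, 54.4 and 52.9 FPKM in the CRS libraries, a narrower spread than that of Fkbp5. The difference in log2 units was -0.65 (SE 0.29), with an unadjusted limma p of 0.0501. Over the 18 alternatives it ran from -0.92 to -0.41, and for Hsp90aa1 from -1.33 to -0.82. Hspa8, named after its values were seen, was the other chaperone whose groups did not overlap, with a difference of -0.69 log2 units (SE 0.38). Summed over the 14 genes the CON libraries held 1254 to 1490 FPKM and the CRS libraries 782 to 1186 FPKM, with CRS replicate 2 nearest to CON.

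**Figure D4:**
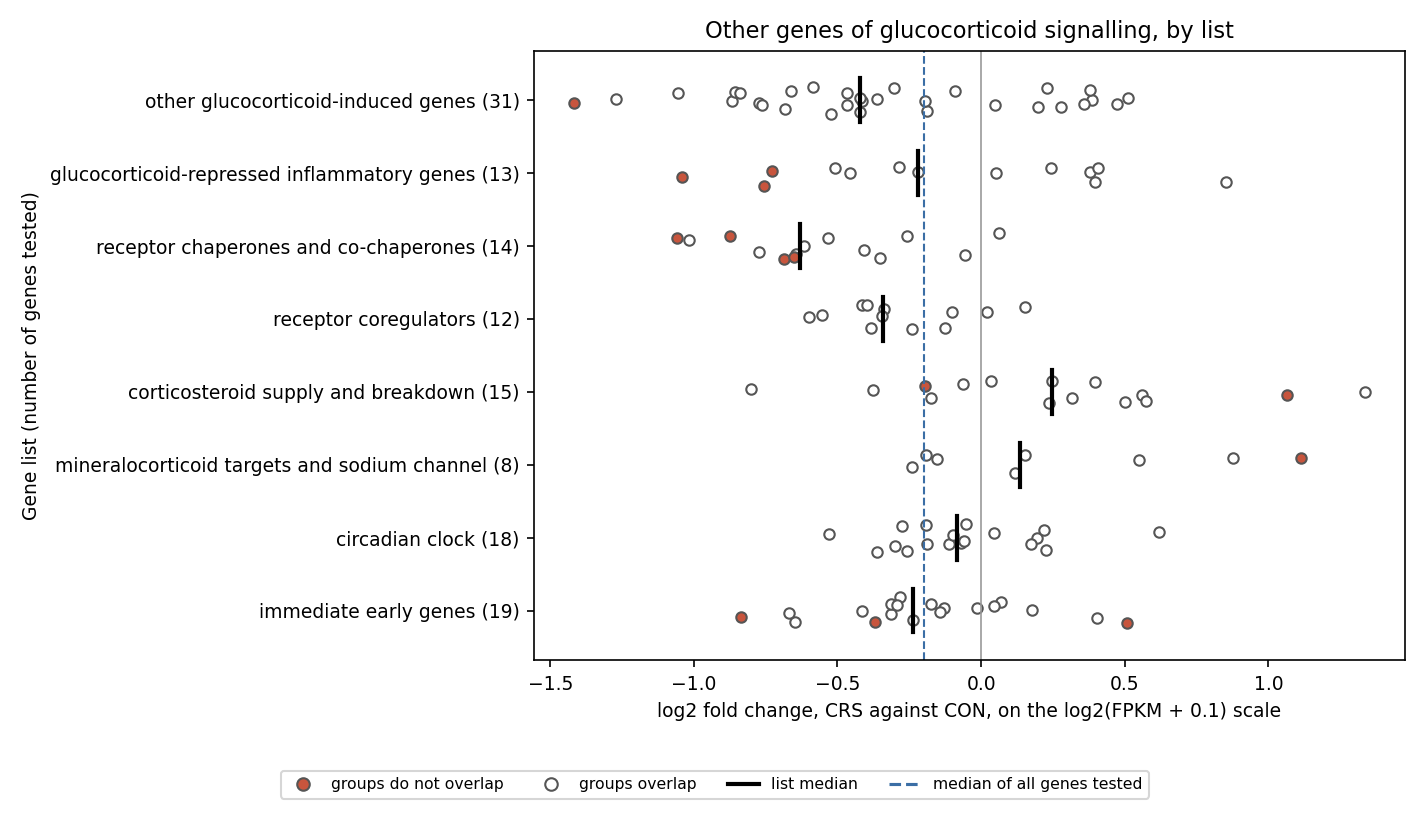
log2 fold change of CRS against CON on the x axis for the genes of 8 lists (y axis), 1 point per gene, filled where the 3 CRS and 3 CON values do not overlap, with the list median as a bar and the median of all genes as a dashed line. The chaperone median of -0.63 lies farthest below that line and the corticosteroid supply median of 0.25 farthest above it.

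Inflammatory genes that glucocorticoids repress were on both sides, with 6 of 13 fold changes above 0 and 7 under 0 and a median of -0.22, beside -0.20 for all genes. None had an unadjusted limma p under 0.05. The leading pair at 1 FPKM or more was Il1a, an epidermal cytokine gene, with 0.85 log2 units (SE 0.45), and the chemokine gene Ccl2 at -0.51 (SE 0.44). Cxcl1, Tnf and Ptgs2, named after their values were seen and each at a mean under 1 FPKM, were lower without overlap at -1.04, -0.76 and -0.73. That is 3 of 13, against 5.19% of all genes, and Cxcl1 rests on 6 to 27 fragments per library.

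The list of mineralocorticoid targets and sodium channel subunits had 5 of 8 fold changes above 0, where 32.2% of all genes lay above 0, and a median of 0.14. That median was -0.12 when libraries were scaled without mitochondrial and muscle genes, -0.19 without CRS replicate 2 and -0.017 without CON replicate 2, so no direction can be given. Scnn1b, the beta subunit of the epithelial sodium channel that Sgk1 supports, stood at 1.43, 4.21 and 4.94 FPKM in the CON libraries and at 7.29, 8.10 and 5.44 FPKM in the CRS libraries. The groups did not overlap, as for 1 of the 8 genes of the list and 1.65% of all genes in the higher direction. The log2 fold change was 1.11 (SE 0.49) and the unadjusted limma p was 0.0502. Without CON replicate 1, the lowest library, the value was 0.58, and without that library and CRS replicate 2 it was 0.46. Hair shaft markers, with 10 of 11 fold changes above 0 and a median of 1.24, and sebaceous gland markers, with a median of 0.82, lay higher beside it. Hair shaft sums were 2204 to 7430 FPKM in the CON libraries and 7074 to 13395 FPKM in the CRS libraries, with no marker at 0, and the part of these structures was not tested. The alpha subunit gene Scnn1a stood at 2.21, 3.85 and 4.06 FPKM in the CON libraries and at 4.43, 13.4 and 3.76 FPKM in the CRS libraries, with overlap and a log2 fold change of 0.88 (SE 0.52), or 0.32 without CRS replicate 2 and 0.046 without that library and CON replicate 1.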

How the data were processed

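Skin RNA of 3 CON and 3 CRS mice was sequenced, and the deposited values are FPKM per Ensembl gene, made by the authors; the submitters' processing notes name HISAT2 and the build GRCm39, with no counting tool, strand setting or filter stated. Gene names and exon lengths came from GENCODE annotation of GRCm38, which held 54079 of the 54146 IDs. FPKM steps gave whole fragments, within 0.05, for 98.05% to 98.33% of values up to 100 fragments, and depths of 13.3 M to 25.7 M fragments.

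log2(FPKM + 0.1) of the 28389 genes whose mean reached 0.1 FPKM was fitted with limma 3.58.1 (trend) in R 4.3.3, with CRS against CON as the sole term and Benjamini-Hochberg adjustment over all genes. Fits were tested on simulated data. Single ratios had two-sided exact permutation tests, whose smallest p for 3 against 3 is 0.1. Poisson intervals are exact at 95% and cover counting error only. No source states separate cages, so p-values measure the spread between these samples.

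The members and lists were chosen with earlier results of these data known. Beside the 10 genes, the text names from each list the genes at a mean of at least 1 FPKM with an unadjusted p under 0.05 and no overlap, at most 4, otherwise the 2 with the lowest p, plus Hsd11b2, Per1, Mt1, Mt2, Hsp90aa1, Fkbp4 and Scnn1a. Alternatives covered the pseudocount, filter, scaling, variance model, array weights, replicate block, voom and each library left out; the correction for exon length in 20 bins was added after seeing the data.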

Additional observations from a re-analysis of the deposited data

How the results depend on the processing

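No gene passed the adjusted threshold in limma or under any of the 18 alternatives, while genes at an unadjusted p under 0.05 numbered 341 to 7634. Of the 10 genes, 4 (Nr3c1, Hsd11b1, Tsc22d3 and Klf9) kept their direction under every alternative. The number at an unadjusted p under 0.05 was 4 with array weights and 0 to 2 with a library left out, with none without CRS replicate 1, where Tsc22d3 lay just over the threshold. Log2 fold changes turned in direction as follows, and the cause was not tested. With a pseudocount of 1 Zbtb16 was 0.084, and with one of 0.01 Hsd11b2 was 0.13. Under median-ratio scaling, which moved the median of all genes from -0.20 to -0.0041, Zbtb16 was 0.15, Dusp1 0.027, Hsd11b2 0.040, Per1 0.018 and Srd5a1 0.021. Sgk1 was -0.14 when scaled without mitochondrial and muscle genes, which moved that median to -0.44, and -0.029 with array weights. With CON replicate 1 and CRS replicate 2 both left out Sgk1 was -0.0029 and Errfi1 -0.053. After the correction for exon length Nr3c2 was 0.049, Zbtb16 0.20, Dusp1 0.059, Hsd11b2 0.15, Per1 0.044 and Srd5a1 0.047, and with voom Hsd11b2 was 0.076. With each library left out Nr3c2 ran from -0.40 to 0.091, Fkbp5 from -0.64 to 0.23, Zbtb16 from -0.94 to 0.84, Hsd11b2 from -0.67 to 0.52, Per1 from -0.78 to 0.25 and the log2 ratio of Nr3c1 to Nr3c2 from -0.47 to 0.035. List medians also turned: repressed inflammatory genes to 0.21 under the filter of 1 FPKM, corticosteroid supply to -0.0083 with CON replicate 1 and CRS replicate 2 both left out, mineralocorticoid targets to as low as -0.35 with array weights, coregulators to 0.010 without CRS replicate 3, clock genes to 0.18 without that library and immediate early genes to 0.0072 after the correction for exon length. Nr3c2 and Hsd11b2 gave no value under the filter of 1 FPKM.

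Same-numbered libraries correlated at -0.30, -0.043 and 0.097 in their deviations from group means, and none correlated best with its own number. With 3 libraries per group these correlations depend on each other, so they cannot show whether same-numbered mice were matched. With the replicate block 0 genes passed the adjusted threshold and Tsc22d3 had an unadjusted limma p of 0.0399. Depth limits Nr3c2 at 24 to 59 fragments per library, Tnf at 15 to 37, Cxcl1 at 6 to 27 and Hsd11b2 at 1 to 21.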

Other observations

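Receptor coregulators, circadian clock genes and immediate early genes were also listed, with 0 adjusted calls in limma. Over all genes tested, 67.8% of fold changes lay under 0 and the median was -0.20. Of 12 coregulators 10 had fold changes under 0, with a median of -0.34 log2 units and no gene at an unadjusted limma p under 0.05. The corepressor gene Ncor1 stood at -0.60 log2 units (SE 0.44) and the chromatin remodeller gene Smarca4 at -0.55 (SE 0.47). Of 18 clock genes 12 lay under 0, with a median of -0.084, which ran from -0.51 to 0.18 with each library left out. The repressor gene Bhlhe41 was at -0.53 (SE 0.37) and the output gene Dbp at 0.62 (SE 0.55). Of 19 immediate early genes tested 14 lay under 0, with a median of -0.24. At an unadjusted limma p under 0.05, 1 was lower and 0 were higher, against 1.63% and 0.919% of all genes. The groups did not overlap for 2 lower and 1 higher, against 5.19% and 1.65%. Fos, named after its values were seen, was higher without overlap at 0.51 (SE 0.31), and Ier2 lower at -0.37 (SE 0.28). Klf2, an endothelial and lymphocyte transcription factor gene, was at -0.83 (SE 0.32), with an unadjusted limma p of 0.0302. Beside it, endothelial marker sums were 24.2 to 58.7 FPKM in CON and 14.1 to 41.9 FPKM in CRS.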
